A study of Mus musculus with 6 samples.

Results

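The genes described here are 10 that encode blood group antigens and related proteins of the red cell surface: Rhd, Rhag, Icam4 and Cd47 of the Rh complex, Kel and Xk of the Kell complex, Ermap, Gypc, and the transporters Aqp1 and Slc14a1. They were chosen by name, and all 10 had a row among the 23284 gene rows of each count table. Poly(A) RNA was taken from erythroblasts, the red cell precursors that still have a nucleus, of mouse embryos of the strain C57BL/6 at embryonic day E10.5, sorted as live cells carrying Ter119 and CD71. The series' design text gives fetal blood as their source and the sample labels give fetal liver. The libraries are called controls 1 to 3 and nulls 1 to 3. The null group held 3 libraries of the genotype SETD8fl/fl EpoR Cre, in which Cre is named after the erythroid receptor gene EpoR. Of the 3 controls, controls 1 and 3 were Setd8 +/+ EpoRCre, which carry Cre and no floxed allele, and control 2 was Setd8 fl/fl EpoR WT, which carries floxed alleles and no Cre. Setd8 encodes a histone methyltransferase that adds 1 methyl group to a lysine of histone H4. Loss depends on Cre acting in the cells that were sorted, and the labels do not say how many embryos entered a library.

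Blood group antigens are inherited differences in proteins or sugars on the red cell. In the Rh complex, the Rh protein and its glycoprotein partner RhAG form a core in the membrane to which the adhesion protein ICAM-4 and the integrin-associated protein CD47 attach, and which joins the anion exchanger band 3 and ankyrin. In the Kell complex, the endopeptidase Kell is linked by a disulfide bond to XK, a membrane protein with a role in moving phospholipids between membrane leaflets. Most of these genes are switched on as erythroblasts mature, and the erythroid factors GATA1 and KLF1 bind the sequences named after them near many erythroid genes.

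The stretches around the start of 5 of these genes are shown because each holds a GATA sequence just before the start; among them is Rhd, which was called lower in the null libraries, and the other 4 did not pass. RefSeq windows of build GRCm38.p6, from 250 bases before to 50 after an annotated start, were used for 8 of the 10 genes. Each is written 5′ to 3′ on the gene's strand, and capitals mark a GATA sequence on either strand, which may be spelled AGATAA, may end in G as in AGATAG, may begin with T as in TGATAA, or may do both as in TGATAG.
Rhd chr4:134864286-134864585 (+ strand): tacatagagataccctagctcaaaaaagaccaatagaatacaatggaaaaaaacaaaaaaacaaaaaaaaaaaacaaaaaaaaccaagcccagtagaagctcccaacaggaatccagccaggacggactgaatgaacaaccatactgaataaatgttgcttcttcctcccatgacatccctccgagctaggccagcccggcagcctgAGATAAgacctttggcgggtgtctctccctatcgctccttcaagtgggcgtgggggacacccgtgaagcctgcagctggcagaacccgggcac
Rhag chr17:40810899-40811198 (+ strand): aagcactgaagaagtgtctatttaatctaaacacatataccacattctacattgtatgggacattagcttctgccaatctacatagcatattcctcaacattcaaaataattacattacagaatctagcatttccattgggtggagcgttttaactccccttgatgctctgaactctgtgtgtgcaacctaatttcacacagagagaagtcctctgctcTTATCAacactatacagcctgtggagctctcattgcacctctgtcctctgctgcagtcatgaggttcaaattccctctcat
Icam4 chr9:21029182-21029481 (+ strand): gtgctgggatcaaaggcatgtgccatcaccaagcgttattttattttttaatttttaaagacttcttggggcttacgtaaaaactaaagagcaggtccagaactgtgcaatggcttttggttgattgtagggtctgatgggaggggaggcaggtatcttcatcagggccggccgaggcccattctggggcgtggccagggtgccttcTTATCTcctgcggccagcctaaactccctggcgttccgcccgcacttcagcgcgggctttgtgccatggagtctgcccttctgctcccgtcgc
Kel chr6:41704276-41704575 (- strand): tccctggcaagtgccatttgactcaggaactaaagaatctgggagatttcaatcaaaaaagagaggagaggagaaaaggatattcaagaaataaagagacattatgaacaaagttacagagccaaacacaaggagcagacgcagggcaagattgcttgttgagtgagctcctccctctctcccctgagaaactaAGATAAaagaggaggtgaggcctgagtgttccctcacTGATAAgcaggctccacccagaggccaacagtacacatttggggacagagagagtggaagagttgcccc
Ermap chr4:119189946-119190245 (- strand): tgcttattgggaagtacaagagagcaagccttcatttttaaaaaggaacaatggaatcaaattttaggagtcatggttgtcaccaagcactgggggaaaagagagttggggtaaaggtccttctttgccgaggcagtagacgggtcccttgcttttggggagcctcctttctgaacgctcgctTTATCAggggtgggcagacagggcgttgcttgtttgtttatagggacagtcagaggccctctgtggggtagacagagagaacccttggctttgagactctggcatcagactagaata

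Of the 8 genes searched, these 5 held at least 1 of the 4 GATA spellings, and the windows of Cd47, Xk and Aqp1 held none. Gypc and Slc14a1 were left out of the search, so these counts do not cover them. Slc14a1 was called lower in the null libraries. Among all 32851 mouse windows, 29.8% held one. In Rhd and in Icam4 the match began 43 bases before the start, in Rhag 31 and in Ermap 67 bases before it, and Kel held 2 matches, 56 and 19 bases before it. The spelling CCNCNCCC, which covers the KLF1 sequence, was searched on both strands as well, with overlapping matches counted. It was in the windows of Rhd, Icam4, Xk and Aqp1 and in 49.5% of all windows. A match describes the letters only. Rhd, which fell, and Rhag, which did not pass, both held a GATA spelling.

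The libraries held 7756940 to 21434719 reads assigned to genes, and globin genes took 26.5% to 45.2% of them. Tfrc, which encodes the sorted marker CD71, stood at 192 to 443 CPM (reads per 1000000, scaled by edgeR's TMM factors) and so was present in every library. The adult alpha globin row Hba-a1 had 1 read over all libraries. Reads aligned to more than 1 place were assigned to no gene, and made up 24.1%, 22.5% and 32.4% in controls 1 and 2 and null 1. Whether reads of Hba-a1 were lost in this way was not tested, so its count does not show that the gene was silent. Setd8 itself was counted in all libraries, at 73.9, 74.8 and 203 CPM in controls 1, 2 and 3 against 48.9, 100.3 and 96.3 in nulls 1, 2 and 3, and fell by 0.83 on the log2 scale with an SE of 0.17 (adjusted p = 0.00911, edgeR quasi-likelihood) with the title set described next as a term. With group alone its log2 ratio was -0.52 (adjusted p = 0.702, edgeR quasi-likelihood), which did not pass, and the groups overlapped. Titles of control 3 and nulls 2 and 3 ended in a letter (the lettered set), and those of the other 3 libraries did not (the unlettered set). The tables of these sets differed in form, and of 10512 tested genes 17.7% were higher and 10.9% lower in the lettered set by edgeR's quasi-likelihood test at an adjusted p under 0.05. Null was therefore compared with control with the title set as a term, and again with group alone.

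Markers of macrophages, endothelial cells, megakaryocytes and progenitors were low and summed higher in every null library than in any control, while those of hepatocytes overlapped. The 14 macrophage markers summed to 2.29 to 10.2 CPM in controls and 33.8 to 107.9 in null libraries, and 4 rose, 0 fell and 3 did not pass of 7 tested. The 12 endothelial markers summed to 3.89 to 12.05 and 25.3 to 39.4 CPM, with 3 higher of 4 tested, and Cdh5, which defines these cells, had 1 read in all. The 12 megakaryocyte markers summed to 29.0 to 48.5 and 103.7 to 153.6 CPM, with 3 higher of 7 tested, and the 8 progenitor markers with a row to 3.62 to 9.53 and 20.6 to 91.7 CPM, with 1 higher of 5. The 10 hepatic markers summed to 0.586 to 4.37 and 0.667 to 5.96 CPM, 1 was tested and did not pass, and Alb had no read. With 1 library left out, 0 to 5 macrophage, 0 to 3 endothelial, 0 to 3 megakaryocyte and 0 to 2 progenitor markers were higher, and 0 in each list without null 1. Not every marker followed its sum. Nulls exceeded controls without overlap in 6 of 14 macrophage and 4 of 12 endothelial markers. The same held for 5 of 12 megakaryocyte and 2 of 8 progenitor markers. Gp9, a megakaryocyte marker, was lower in every null library than in any control. Mpo alone gave 61.3 of the 91.7 progenitor CPM in null 3. Itga2b and Itgb3 gave 67.1 and 54.9 of the 153.6 megakaryocyte CPM in null 2. The part of these markers in the results for the antigen genes was not tested.

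Rhd and Slc14a1 fell in the null libraries, Cd47 rose, and the other 6 tested genes did not pass. Aqp1, with reads in a single library, was left out by the filter on low counts. With the title set as a term, 1 of 9 tested genes was called higher, against 8.65% of all tested genes, and 2 were called lower, against 4.16%. The count of higher genes is thus near the background. None of the 9 was called with group alone, where 1.15% of all genes were. All null libraries lay below all controls for 3 of the 9, Rhd, Icam4 and Slc14a1, against 9.16% of all tested genes, and above them for 0 of the 9, against 14.9%. The median log2 ratio of the 9 was -0.11, beside 0.044 over all tested genes, and their reads summed with those of Aqp1 to 2436 to 3270 CPM in controls and 1961 to 2455 in null libraries. In bulk RNA, fewer cells that express a gene and less of its RNA per cell cannot be told apart.

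**Figure D1:**
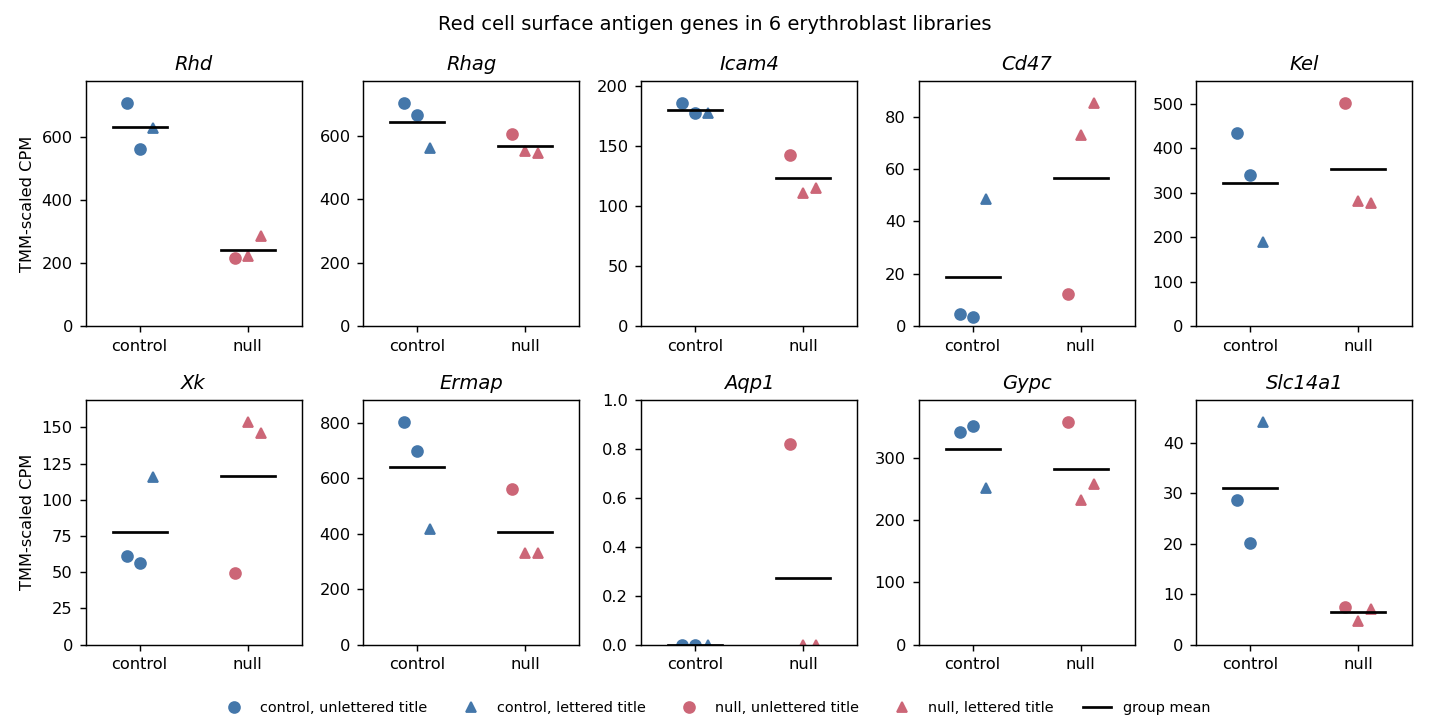
TMM-scaled CPM (y axis, a separate scale from 0 for each gene) of the 10 antigen genes in the 3 control and 3 null libraries, with a point for each library and a line at the group mean. Circles are libraries with unlettered and triangles with lettered titles. Rhd, Icam4 and Slc14a1 have no overlap between groups, and Cd47, Xk, Kel, Ermap, Gypc and Rhag have overlapping groups and no overlap between symbols.

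Rhd encodes the Rh polypeptide that carries the Rh antigens and lies on chromosome 4. It stood at 707, 562 and 630 CPM in controls 1, 2 and 3 against 216, 223 and 286 in nulls 1, 2 and 3. All 3 null libraries were below all controls in both title sets. The means were 633 ± 72.3 and 241 ± 38.5 CPM (SD, n = 3 each). Rhd fell by 1.43 on the log2 scale with an SE of 0.17 (adjusted p = 0.000418 in edgeR's quasi-likelihood test after Benjamini-Hochberg correction), a 2.70-fold lower level, and it passed whichever of the 6 libraries was left out (adjusted p 0.000267 to 0.0166). With group alone the log2 ratio was -1.39 and the adjusted p 0.0638, which did not pass. Within the unlettered set the difference of mean log2 CPM was -1.55 and within the lettered set -1.32.

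Rhag, on chromosome 17, encodes the Rh-associated glycoprotein, a channel for ammonia that the Rh protein needs to reach the surface. Its level was 702, 666 and 563 CPM in controls 1, 2 and 3 against 605, 551 and 545 in nulls 1, 2 and 3. The groups overlapped, and the control of the lettered set lay among the null libraries. The log2 ratio was -0.11 with a 95% interval of -0.42 to 0.21 (adjusted p = 0.685, edgeR quasi-likelihood), so that a fold between 0.747 and 1.15 was within the interval.

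The ratio of Rhd to Rhag reads within a library does not depend on library scaling. It was 1.01, 0.844 and 1.12 in controls 1, 2 and 3 against 0.357, 0.404 and 0.524 in nulls 1, 2 and 3. Every null library had fewer Rhd reads for each Rhag read than any control, in both title sets. The means were 0.990 ± 0.138 and 0.428 ± 0.0860 (SD, n = 3 each), a 2.31-fold difference. A 2-sided exact permutation test on the log ratios gave p = 0.1, the smallest p that 3 against 3 allows. It exchanged libraries freely between the title sets and so took no account of them. The same exact permutation test gave p = 0.1 for Icam4 over Rhag, with values of 0.264 to 0.315 in controls and 0.202 to 0.235 in null libraries. Slc14a1 over Rhag also had p = 0.1 in the exact test, with 0.0303 to 0.0785 in controls and 0.00830 to 0.0131 in null libraries. Gypc over Rhag was 0.488 ± 0.0409 and 0.496 ± 0.0872 and had p = 1 in the exact test, and Ermap over Rhag had p = 0.2. In all, 7 ratios were formed, and none can pass a correction over them at this number of libraries.

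**Figure D2:**
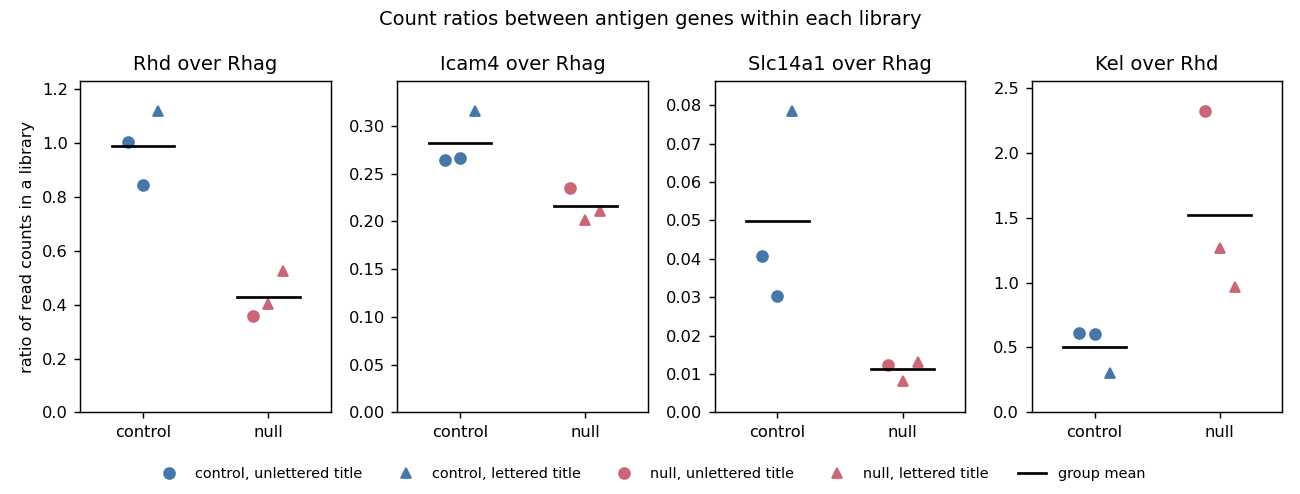
Ratio of read counts of 2 genes within each library (y axis, no unit, from 0) for 4 pairs, with a point for each library and a line at the group mean, and the title set given by the symbol. Rhd over Rhag lies between 0.844 and 1.12 in controls and between 0.357 and 0.524 in null libraries. Kel over Rhd is higher in every null library than in any control, where the divisor Rhd is itself lower in every null library.

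Icam4, on chromosome 9, encodes the Landsteiner-Wiener antigen, an adhesion protein that binds integrins. It stood at 185, 177 and 177 CPM in controls 1, 2 and 3 against 142, 111 and 115 in nulls 1, 2 and 3. No null library reached the lowest control. The log2 ratio was -0.50 (SE 0.15, adjusted p = 0.0539, edgeR quasi-likelihood), just short of the threshold. It passed with median-of-ratios scaling (adjusted p = 0.0425), with globins left out of the scaling (0.0444), without a filter (0.0396) and in DESeq2 (0.0101), and did not pass with group alone (0.280) or with any library left out (0.0563 to 0.282). An antisense gene, Gm47079, covers 100% of the exon bases of Icam4 in GENCODE M21; no source used here gives the strand setting of the counting, so its reads cannot be told apart from those of Icam4.

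Cd47, on chromosome 16, encodes the integrin-associated protein that signals to SIRPα on phagocytes and restrains engulfment. Its counts were 31, 68 and 1044 reads in controls 1, 2 and 3 against 209, 1421 and 1649 in nulls 1, 2 and 3. These are 4.59, 3.62 and 48.6 CPM in controls and 12.2, 73.0 and 85.2 CPM in null libraries. Within each title set the null libraries were above the controls, but the control of the lettered set was above the null library of the unlettered set. Cd47 rose by 1.11 on the log2 scale with an SE of 0.26 (adjusted p = 0.0177, edgeR quasi-likelihood) with the title set as a term. The call was lost with group alone (log2 ratio 1.58, adjusted p = 0.592), without control 1 (1.08 and 0.0550), without control 2 (0.94 and 0.0641) and without null 1 (0.70 and 0.295). The difference of mean log2 CPM was 1.56 within the unlettered and 0.70 within the lettered set, and the test of that difference had an unadjusted p of 0.0823 (edgeR quasi-likelihood, adjusted p = 0.715). Between the title sets, with group in the model, Cd47 was higher by 3.12 on the log2 scale in the lettered set. The summed markers of macrophages, endothelial cells, megakaryocytes and progenitors given above were higher in the null libraries as well. Their part in the level of Cd47 was not tested.

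Kel, on chromosome 6, encodes the Kell antigen, an endopeptidase that activates endothelin-3. It stood at 434, 340 and 189 CPM in controls 1, 2 and 3 against 501, 282 and 277 in nulls 1, 2 and 3. Null was above control within each title set, and the groups overlapped across the sets. The log2 ratio was 0.47 with a 95% interval of 0.12 to 0.82 (SE 0.16, adjusted p = 0.0779, edgeR quasi-likelihood), and with group alone 0.14, so Kel did not pass. Kel over Rhd was 0.615, 0.605 and 0.300 in controls 1, 2 and 3 against 2.32, 1.27 and 0.970 in nulls 1, 2 and 3, with p = 0.1 in the exact permutation test. Rhd, the divisor, was itself lower in every null library than in any control, so the separation of this ratio is not a result about Kel.

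Xk, on the X chromosome, encodes the partner of Kell that is missing in McLeod syndrome. It stood at 61.2, 56.0 and 115 CPM in controls 1, 2 and 3 against 49.7, 154 and 146 in nulls 1, 2 and 3. The null library of the unlettered set was below its controls, and both null libraries of the lettered set were above theirs. The difference of mean log2 CPM was accordingly -0.24 and 0.37, and the test of this difference had an unadjusted p of 0.0751 (edgeR quasi-likelihood, adjusted p = 0.715). The log2 ratio over both sets was 0.073 with a 95% interval of -0.35 to 0.50 and changed sign without control 3, null 2 or null 3. The embryos differed in sex, whose part in the level of Xk was not tested: the X inactivation transcript Xist stood at 208 and 104 CPM in controls 2 and 3 and at 0.155 to 9.70 in the other 4 libraries, which held Y-linked transcripts at 117 to 164 CPM in sum. In the lettered set the control held Xist and both null libraries held Y-linked transcripts, so sex and group cannot be told apart there for any gene. In the unlettered set control 1 and null 1 held Y-linked transcripts and control 2 held Xist, with Xk at 61.2, 49.7 and 56.0 CPM in that order. Kel over Xk was 1.64 to 10.1 over the libraries and followed the title set, with 4.93 ± 2.90 in controls and 4.61 ± 4.75 in null libraries (SD, n = 3 each, p = 1 in the exact permutation test).

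Ermap, on chromosome 4, encodes a butyrophilin-like membrane protein that carries the Scianna antigens. It stood at 805, 698 and 417 CPM in controls 1, 2 and 3 against 562, 330 and 330 in nulls 1, 2 and 3. Null was below control in each title set, and the groups overlapped across the sets. The log2 ratio was -0.38 with a 95% interval of -0.70 to -0.056 (adjusted p = 0.119, edgeR quasi-likelihood), and Ermap passed in DESeq2 alone (adjusted p = 0.0201).

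Gypc, on chromosome 18, encodes glycophorin C, which carries the Gerbich antigens and ties the membrane to the skeleton through protein 4.1 and the adaptor p55. It stood at 342, 352 and 252 CPM in controls 1, 2 and 3 against 358, 232 and 259 in nulls 1, 2 and 3, with the groups overlapping. The log2 ratio was 0.0049 with a 95% interval of -0.31 to 0.32 (adjusted p = 0.989, edgeR quasi-likelihood), which bounds the fold between 0.806 and 1.25.

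Slc14a1, on chromosome 18 as well, encodes the urea transporter UT-B, which carries the Kidd antigens. Its counts were 193, 379 and 950 reads in controls 1, 2 and 3 against 128, 89 and 138 in nulls 1, 2 and 3, or 28.6, 20.2 and 44.2 CPM against 7.48, 4.57 and 7.13. Every null library was below every control. Slc14a1 fell by 2.32 on the log2 scale with an SE of 0.36 (95% interval -3.12 to -1.52, adjusted p = 0.00204, edgeR quasi-likelihood), a 4.99-fold lower level. It did not pass with group alone (log2 ratio -2.28, adjusted p = 0.0639) or without control 3 (log2 ratio -1.72, adjusted p = 0.105). Within the sets the difference of mean log2 CPM was -1.67 and -2.93, and their difference had an unadjusted p of 0.0920 (edgeR quasi-likelihood, adjusted p = 0.729).

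Aqp1, on chromosome 6, encodes the water channel that carries the Colton antigens. It had 0 reads in all 3 controls and in nulls 2 and 3, and 14 reads in null 1, or 0.818 CPM. A count of 0 allows up to 3 reads, which is 0.445, 0.160 and 0.140 CPM in controls 1, 2 and 3 and 0.154 and 0.155 CPM in nulls 2 and 3, by counting error alone. Aqp3, the aquaporin that carries the GIL antigen, had 387 ± 108 CPM in controls and 307 ± 103 in null libraries and did not pass.

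**Figure D3:**
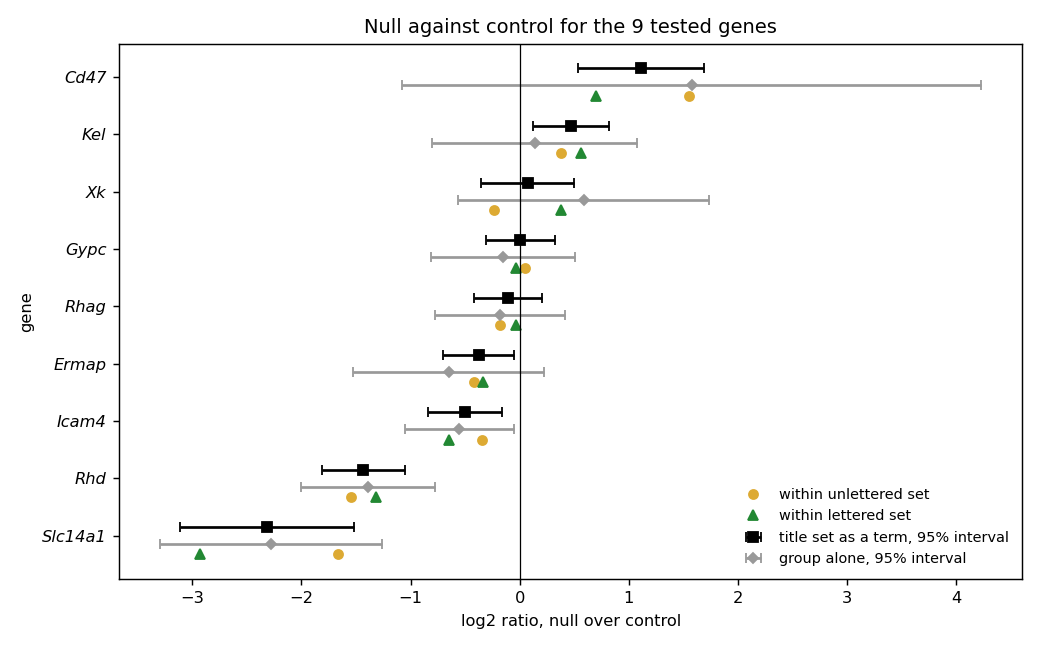
Log2 ratio of null to control (x axis) for the 9 tested antigen genes, with squares for the fit with the title set as a term and diamonds for group alone, each with its 95% interval, and the differences within the unlettered (circles) and lettered (triangles) set. Rhd, Slc14a1, Icam4, Ermap and Rhag lie below 0 in every point estimate, and both intervals of Rhag cross 0. The group-alone interval of Cd47 runs from -1.08 to 4.23, and the within-set estimates of Xk lie on opposite sides of 0.

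Levels can be compared between genes only per length, taken here as CPM per kilobase of exon (GENCODE M21). In controls Rhd was the highest at 418 ± 47.8 CPM per kilobase, followed by Rhag at 275 ± 30.9, and their ranges did not overlap. Icam4 (162 ± 4.19), Ermap (141 ± 44.0), Gypc (135 ± 23.8) and Kel (127 ± 48.9) followed. Their ranges overlapped, except that Icam4 at its lowest, 160 CPM per kilobase, was above Gypc at its highest, 151. Xk was lower at 15.3 ± 6.49 CPM per kilobase, Slc14a1 at 7.76 ± 3.05 and Cd47 at 3.04 ± 4.12, and the ranges of Slc14a1 overlapped those of Xk and of Cd47 (SD, n = 3 each). Rhd came first in each control, and Rhag came first in each null library, where it had 242 ± 14.1 CPM per kilobase and Rhd 159 ± 25.4. Cd47 was above Slc14a1 in each null library and below it in each control.

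Several antigen genes differed between the title sets. With group in the model, Cd47 and Xk were higher in the lettered set, by 3.12 and 1.29 on the log2 scale, and Kel, Ermap and Gypc were lower, with log2 ratios of -0.94, -0.81 and -0.51. These are 2 higher and 3 lower of 9 tested, beside 17.7% higher and 10.9% lower of all tested genes. The other 4 tested genes, Rhd, Rhag, Icam4 and Slc14a1, did not pass for the title set. In the test of whether the null effect differed between the sets, 0 of the 9 genes passed (edgeR quasi-likelihood with the interaction, 0 at an unadjusted p under 0.05), beside 0.00951% of all tested genes, and with 2 residual degrees of freedom that test is weak.

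Of 20 other blood group genes tested among 22 with a row, 6 rose, 1 fell and 13 did not pass with the title set as a term, and 1 rose with group alone. Their median log2 ratio was 0.56, beside 0.044 over all tested genes. Of all tested genes, 8.65% were called higher and 4.16% lower, and the same shares apply beside every list given here. The gene that fell was Slc29a1, described below with the transporters. Cd44, the hyaluronan receptor of the Indian antigens, had 3 reads over the controls and stood at 4.21, 7.39 and 5.17 CPM in nulls 1, 2 and 3. Prnp, the prion protein gene, rose from 0.520 ± 0.562 to 19.2 ± 6.25 CPM, Cd55, a brake on complement that carries the Cromer antigens, from 5.73 ± 3.02 to 27.4 ± 8.03, and Emp3, which carries the MAM antigen, from 4.54 ± 1.39 to 19.4 ± 10.7 (SD, n = 3 each). Cd59a, a further brake on complement, and Art4, the Dombrock carrier, made up the 6 that rose and were named after their values were seen, at 412 ± 184 and 141 ± 22.4 CPM in null against 184 ± 32.1 and 85.2 ± 8.16 in control libraries. The number that rose was 1 without nulls 1 and 5 to 8 without any other library. Whether the share of higher genes differs between this list and the 10 genes was not tested. Of 8 glycosyltransferases of carbohydrate antigens, 1 was tested and it did not pass.

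In the list of the band 3 complex, its adaptors and skeleton proteins, which also holds Car2 and Vps13a, Mpp1 rose and most others did not pass. Mpp1 encodes p55, the adaptor that joins glycophorin C and protein 4.1. It stood at 5.93, 4.31 and 4.51 CPM in controls 1, 2 and 3 against 313, 387 and 365 in nulls 1, 2 and 3, a log2 ratio of 6.18 (SE 0.21, adjusted p = 4.61e-08, edgeR quasi-likelihood). It was called with group alone and whichever of the 6 libraries was left out, while Gypc did not pass. Mpp1 is X-linked as well, and the part of embryo sex in its level was not tested. Of the 13 genes of this list, 1 rose, 2 fell and 10 did not pass, and with group alone 1 rose. Epb4.9, or dematin, an actin-bundling protein, fell from 118 ± 24.0 to 55.7 ± 4.07 CPM and the beta spectrin gene Spnb1 had 186 ± 72.1 and 142 ± 44.5 CPM and fell with the title set as a term. The number that fell was 4 without null 3, 0 without nulls 1 and 1 without control 1 or null 2. Slc4a1, which encodes band 3, stood at 1862 ± 57.5 and 1402 ± 317 CPM (adjusted p = 0.0678, edgeR quasi-likelihood) and did not pass, as did Ank1, Epb4.2 and Epb4.1.

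Among 23 other transporters, channels and enzymes of the red cell, 1 rose, 5 fell and 17 did not pass, with a median log2 ratio of -0.22, and 0 passed with group alone. Slc29a1 and Abcb6 are also among the other blood group genes, so the fall of Slc29a1 is counted in both lists. The calcium pump gene Atp2b4 fell from 51.5 ± 22.5 to 17.6 ± 2.81 CPM, the amino acid transporter genes Slc43a1 from 329 ± 12.2 to 164 ± 30.9 and Slc6a9, for glycine, from 122 ± 26.6 to 68.9 ± 19.7, and Tfrc from 426 ± 24.0 to 244 ± 45.0 (SD, n = 3 each). Slc29a1, the nucleoside transporter of the Augustine antigen, was named after its values were seen and fell from 249 ± 34.5 to 138 ± 27.1 CPM. Trpv2, a cation channel, had no control read and stood at 15.2, 1.90 and 23.9 CPM in nulls 1, 2 and 3. Without null 1, 2 of these genes fell, and without the other libraries 4 to 6. Trpv2 was the gene that rose, and the number that rose was 0 without null 1 or controls 3 and 2 without null 3.

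**Figure D4:**
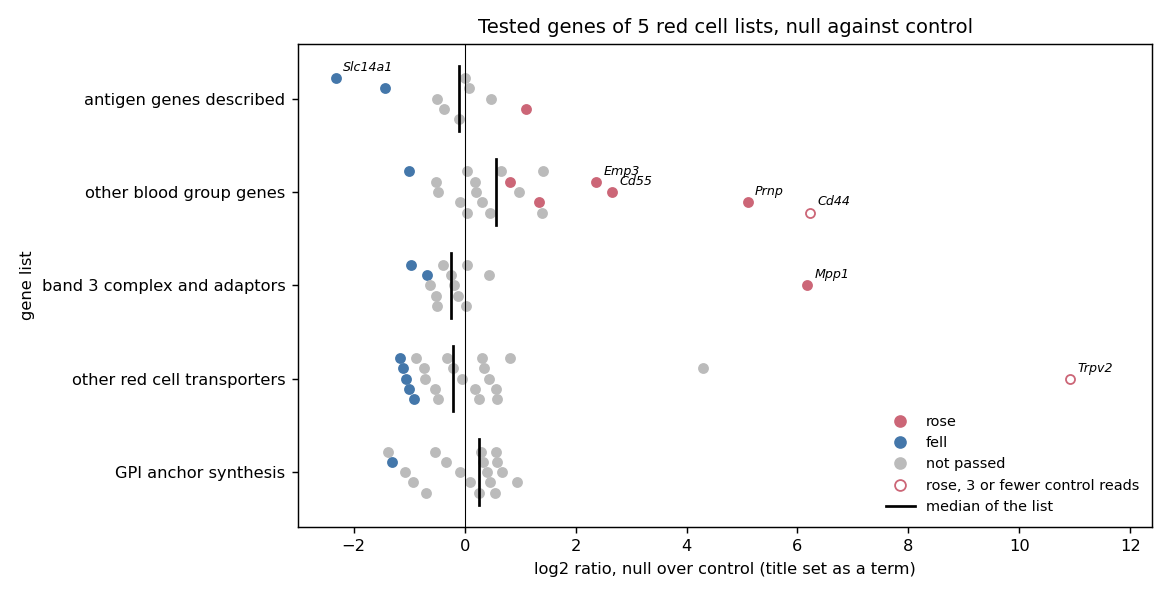
Log2 ratio of null to control with the title set as a term (x axis) for each tested gene of 5 lists (rows, points spread vertically for visibility), coloured by call, with a line at the median of each list. Open points had 3 or fewer control reads, so that their fitted value depends on the prior count and is no bound; Slc14a1 is the lowest of all points and Mpp1 lies at 6.18.

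For the likeness of pattern, log2 CPM was centred on its mean over the 6 libraries and the root mean square distance taken to each of the other 10511 tested genes. Nearest to Rhd were Tfap4 (distance 0.10) and Adam17 (0.12), and to Gypc Nt5c3l (0.021) and Ppid (0.042). Nearest to Xk were Ivns1abp (0.056) and Fbxw11 (0.061), to Ermap Steap3 (0.080) and Dcps (0.088), to Kel Bcl2l1 (0.11) and Plec (0.11), and to Rhag Sars (0.070) and Th1l (0.071). By this distance Cd47 and Slc14a1 had no neighbour as close, with Thop1 (0.24) and Itm2b (0.26) nearest to Cd47 and Agap1 (0.43) and Purg (0.43) nearest to Slc14a1. The distance depends on how much a gene varies as well as on the shape of its pattern. The Pearson correlation over the libraries was 0.998 for Cd47 with Thop1, 0.942 for Slc14a1 with Agap1 and 0.878 for Rhag with Sars. All of these distances hold the difference between the title sets as well as that between the groups.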

How the data were processed

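The values are whole-number read counts per gene symbol, which the authors deposited as 1 table per library and not normalized. The submitters' processing notes name FastQC, Trimmomatic 0.32, TopHat2 2.1.0, HTSeq 0.6.1, edgeR and build mm9, while order, options and strand setting are not given there. The 3 unlettered tables had 5 counter summary lines each, which were left out (42.9% of control 1, 7.72% of controls 2 and 6.07% of null 1 lay on no feature), and 25 symbols that had become dates and were mapped back.

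edgeR 4.0.16 in R 4.3.3 was run as follows: filterByExpr with group (10512 genes kept), TMM factors, robust glmQLFit with title set and group as terms (3 residual degrees of freedom), 2-sided glmQLFTest, Benjamini-Hochberg over all genes at 0.05. Intervals are 95%. Differences within a title set use log2 CPM with a prior count of 2. The genes, lists and design were chosen with earlier results of these data known. Beyond the 10 genes, up to 4 passing genes of largest change per list and markers of the labelled cells were named. The lists were other blood group genes, glycosyltransferases, band 3 complex, paralogues, partners, transporters, GPI anchor synthesis, erythroid factors and cell type markers. Alternatives were group alone, median-of-ratios scaling, scaling without globins, no filter, DESeq2 1.42.0 and each library left out, which for the other lists was added after seeing the data. Some genes that the naming rule selects are not reported here. Libraries of 1 group all differed beyond sampling noise (chi-square 21.9 to 369 per degree of freedom). The controls differ in genotype or sex and so came from different embryos, while for the nulls separate embryos are not stated and their spread may be technical.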

Additional observations from a re-analysis of the deposited data

How the results depend on the processing

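With group alone, 0 of the antigen genes rose and 0 fell, and over all genes 120 rose and 1 fell, where 909 and 437 did with the title set as a term. DESeq2 called 4 antigen genes lower (Rhd, Slc14a1, Icam4 and Ermap), and over all genes 902 fell in DESeq2 and 723 without a filter. With 1 library left out, 0 to 1 antigen genes rose and 1 to 2 fell, and over all genes 162 to 869 rose and 40 to 734 fell, lowest without null 1, which leaves the unlettered set with no null library. With control 3 gone, no control is left in the lettered set. The log2 ratio of Gypc, near 0, changed sign to -0.16 with group alone, -0.031 with median-of-ratios scaling, -0.046 without globins in the scaling, -0.038 without a filter and -0.039 in DESeq2, and ran from -0.10 to 0.030 with 1 library left out. That of Xk was 0.59 with group alone and ran from -0.25 to 0.37 with 1 library left out. In these changes the cause was not tested, and of 99 repeats of single genes 74 kept their direction and side of the threshold. No paired analysis was possible because the labels give no replicate numbers. Aqp1 had too few reads for a test, and 3 counts correspond to 0.445 CPM in the shallowest library.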

Other observations

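Ligands and integrins that bind CD47 or ICAM-4 were mostly low, and 3 of the 7 tested rose, 0 fell and 4 did not pass with the title set as a term (0 passed with group alone). The integrin subunit gene Itgb3 rose from 16.5 ± 7.01 to 48.2 ± 6.69 CPM, Thbs1, which encodes the CD47 ligand thrombospondin-1, from 1.02 ± 0.578 to 8.03 ± 5.95, and Itgb2, a subunit of leukocyte integrins, had 1, 0 and 54 reads in controls 1, 2 and 3 against 436, 371 and 218 in nulls 1, 2 and 3 (SD, n = 3 each). Thbs1 and Itgb3 are also on the megakaryocyte list, whose summed level was higher in null libraries. With 1 library left out, 0 of these genes rose without null 1, 1 without control 1, control 3 or null 2, and 2 otherwise.

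Among 8 tested paralogues of the antigen genes, 2 rose, 0 fell and 6 did not pass. They were Btn1a1, a butyrophilin related to Ermap, from 2.09 ± 1.76 to 27.2 ± 6.30 CPM, and the aquaporin gene Aqp8, from 44.0 ± 25.4 to 175 ± 91.0, and with 1 library left out 1 to 2 rose, 1 of them without null 1 or control 3. The paralogues Rhbg and Rhcg of Rhag had too few reads to be tested. Of 19 enzymes of the GPI anchor, which holds proteins such as CD55 in the membrane, 0 rose and 1 fell, Pigt, from 20.4 ± 7.66 to 11.8 ± 6.18 CPM. It passed without null 2 and without null 3, and in no other repeat that left a library out. Of 10 tested erythroid factors 2 rose with the title set as a term, Nfe2 from 158 ± 26.9 to 258 ± 13.7 CPM and Klf13. Klf13 had 133 ± 85.9 CPM in controls and 136 ± 153 in null libraries, and was higher in null only within each title set. With 1 library left out 0 to 2 of these factors rose, 1 without control 3, 2 without null 3 and 0 without each of the others. Gata1 did not pass, at 419.9 ± 90.6 and 359 ± 69.0 CPM. Of the 10 markers of the labelled cells with a row, 9 were tested and 3 fell, Tfrc, Hba-x and Epor, and 0 to 2 fell with 1 library left out. With group alone, 0 paralogues, 0 GPI anchor enzymes, 0 erythroid factors and 0 of these markers passed.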
